A study of Mus musculus with 12 samples.

Results

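Transcript levels of 35 genes of DNA break signalling and repair were followed in whole bone marrow of B6 mice across 12 RNA-sequencing libraries. The genes were taken by name from a list of double-strand break response genes, and all 35 were found among the 21853 genes of the deposited table. All 35 were also among the 10994 genes that passed the filter on low values, with 3 or more libraries at an FPKM of 1 or higher. The libraries fall into 4 groups of 3, and marrow of the irradiated groups was collected 14 days after total body irradiation (TBI). Control mice were not irradiated, and neither a vehicle nor a collection day of their own is named for them. TBI mice received 5 Gy of γ-rays at 0.66 Gy/min and 100 µL of olive oil by oral gavage as the vehicle. TBI+DEIX mice received the same irradiation and then DEIX by mouth at 25 mg/kg of body weight, once a day for 14 days. DEIX mice received DEIX at 25 mg/kg for 14 days without irradiation, and no collection day of their own is named. No vehicle is named for either DEIX-treated group. The series title names deinoxanthin, a carotenoid of radiation-resistant bacteria, as the compound. The labels do not say whether the 3 libraries of a group came from separate animals, so p-values measure only the spread between these libraries, which may in part be technical.

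A double-strand break is bound by the MRN complex (MRE11, RAD50 and NBN), which activates the kinase ATM, while single-stranded DNA at resected ends or stalled forks activates ATR. Both kinases phosphorylate histone H2AX and the checkpoint kinases, and ends are then joined directly by the KU and ligase IV machinery or, in S and G2 phase, copied from the sister chromatid by homologous recombination. In bone marrow, end joining also completes V(D)J recombination in developing lymphocytes, and many recombination and Fanconi genes are transcribed mainly in cycling cells. Most regulation of this response acts on proteins through phosphorylation and ubiquitin, which RNA levels do not show.

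Levels are given in FPKM, fragments scaled to transcript length and to the size of the library, as the authors deposited them. Differences are on the log2(FPKM + 1) scale with the SE of a limma model over all 12 libraries, and a gene was called where its p-value, adjusted over all 10994 tested genes by the Benjamini-Hochberg method, was under 0.05. On this scale the differences of low genes are understated. The TBI+DEIX group was compared with TBI, and both with the same 3 control libraries, so the comparisons share libraries. In bulk marrow, fewer cells of a type and less RNA per cell cannot be told apart.

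Total read numbers per library are unknown, but low FPKM values step in whole reads. By these steps 1 read was worth 1.51 to 2.15 times as much FPKM in the TBI+DEIX libraries as in control replicate 1, against 0.892 to 1.33 times in the other control and the TBI libraries and 1.11 to 1.67 times in DEIX. The 2 highest of these values were those of TBI+DEIX replicates 1 and 3, while DEIX replicate 1 was above TBI+DEIX replicate 2. For TBI+DEIX replicate 1 the estimate was hardly better than the next best, by a ratio of 1.04, and the same held for DEIX replicate 1 (1.05) and control replicate 3 (1.03). TBI+DEIX replicate 1 also stood apart from its group in gene levels. Over the 35 genes, the within-group SD on the log2 scale was 0.312 in TBI+DEIX, against 0.146 in control, 0.191 in TBI and 0.146 in DEIX. The markers listed for erythroid, B-lineage, granulocyte, monocyte, T and NK, and stem and progenitor cells that had a value in the table were above 0 in all 12 libraries. The granulocyte genes S100a8, S100a9 and Ngp, which are not in those lists, were listed at 0 in 2, 4 and 5 libraries.

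The 35 genes were expressed at modest levels. Their mean FPKM over the 12 libraries had a median of 8.24, against 13.5 for all tested genes, and 10 of the 35 lay above the latter. H2afx, which encodes the histone variant H2AX, was highest at a mean of 187 FPKM, followed by Topbp1 at 46.5, Parp1 at 31.5, Xrcc6 at 24.9 and Clspn at 20.3. The lowest were Prkdc, Atm and Trp53bp1, at 3.23, 3.31 and 3.4 FPKM. The mean was highest in TBI for 27 of the 35 genes, in control for 5, in TBI+DEIX for 2 and in DEIX for 1. It was lowest in TBI+DEIX for 18 genes, in DEIX for 10, in control for 6 and in TBI for 1. The order TBI, control, DEIX, TBI+DEIX from high to low held for 14 genes. Single libraries carried much of this: TBI replicate 3 was the highest of the 12 for 17 genes and TBI+DEIX replicate 3 the lowest for 23.

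**Figure D1:**
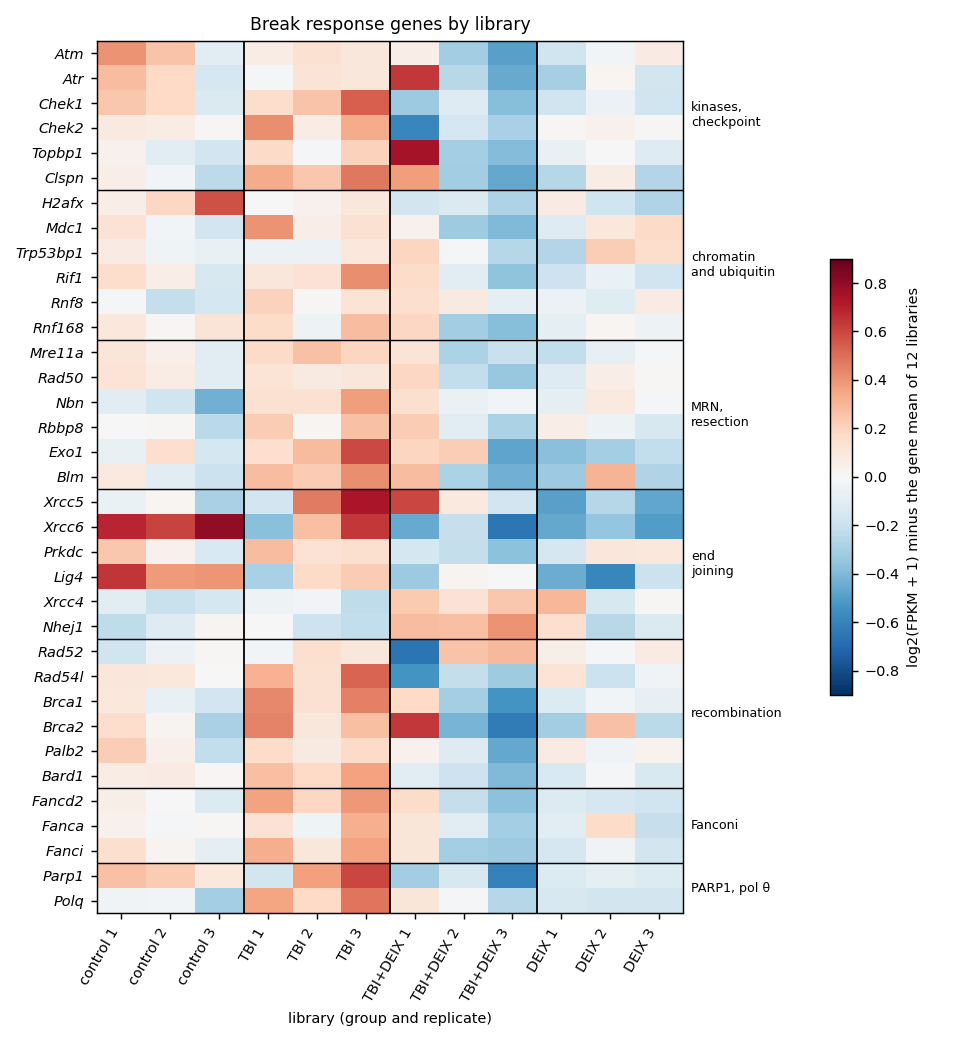
Level of each of the 35 genes (rows, grouped by role) in each of the 12 libraries (columns, by group), as log2(FPKM + 1) minus the gene's mean over the 12 libraries. TBI libraries lie above the mean for most genes and TBI+DEIX replicates 2 and 3 below it, while TBI+DEIX replicate 1 is high for Topbp1, Atr and Brca2.

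At 14 days after irradiation, no gene of the list had changed against control by the test. limma called 0 of 35 in TBI against control, where 3.99% of all tested genes were called, and 7 of the 35 had an unadjusted p under 0.05, where 18.1% of all tested genes did. The direction was mostly upward: 29 genes had a log2 difference above 0, as did 57.8% of all tested genes, and the median was 0.20 against 0.05. For 11 genes all 3 TBI libraries lay above all 3 control libraries, where 22.0% of all tested genes did so. A fit on these 6 libraries alone called 4 genes, namely Blm, Clspn, Nbn and Polq, where it called 12.9% of all tested genes. Without TBI+DEIX replicate 1, which enters only through the shared spread, 5 genes were called: Brca1, Clspn, Fancd2, Nbn and Polq, and 12.2% of all tested genes.

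With DEIX after irradiation, 33 of the 35 genes were lower by group means than with irradiation alone. The sign changed under at least 1 alternative for 6 of the 35. The median log2 difference between TBI+DEIX and TBI was -0.33, against 0.00 for all tested genes, of which 49.5% were lower. The checkpoint kinases Chek1 and Chek2 and the recombination genes Bard1 and Rad54l fell, and the end-joining factor Nhej1 rose. These 5 of 35 calls compare with 8.1% of all tested genes called, 3.41% called lower and 4.69% called higher. Unadjusted p was under 0.05 for 19 of the 35, against 27.2% of all tested genes. For 12 genes all TBI+DEIX libraries lay below all TBI libraries and for 2 above, where 12.7% and 14.5% of all tested genes did. A fit on these 6 libraries alone has the same differences (median -0.33) and called 0 of 35 genes and 0.0% of all tested genes. Its 0 is thus not particular to the list, and 14 of the 35 had an unadjusted p under 0.05. The 5 calls rest on a spread shared over all 12 libraries. Groups differed in spread: the within-group SD over the list was 0.312 in TBI+DEIX and 0.191 in TBI, against 0.146 in control and in DEIX. The count also varied with the libraries in the fit, as did that of all tested genes: limma called 0 without TBI replicate 3 (0.0455% of all tested genes, with 13 of the 35 at an unadjusted p under 0.05) and 0 without TBI+DEIX replicate 3 (0.464%, with 11 of the 35), where the median was -0.20 and 29 genes were lower. It called 3 without control replicate 2 and 3 without TBI replicate 2, with 3.25% and 3.14% of all tested genes. Without TBI+DEIX replicate 1, 24 genes were called, 23 of them lower, where 25.8% of all tested genes were called.

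**Figure D2:**
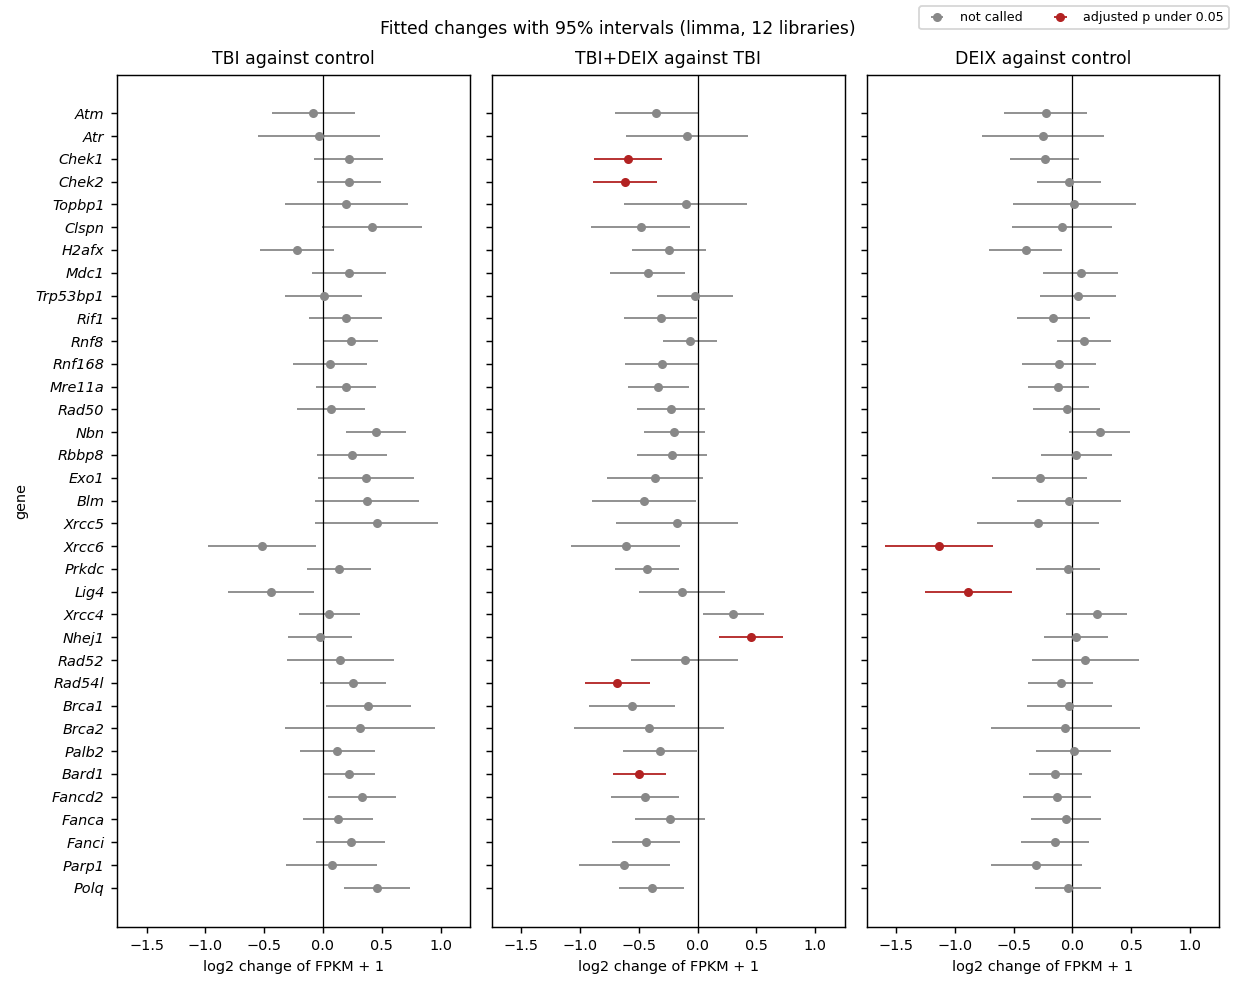
Log2 difference of each gene with its 95% interval from the limma model, by role, for TBI against control, TBI+DEIX against TBI and DEIX against control (panels); red points are called genes and grey points are not. Most points lie above 0 for TBI against control and below 0 for TBI+DEIX against TBI, and in DEIX against control Xrcc6 and Lig4 lie far below the rest.

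Promoter sequences are shown for the 4 genes that fell in TBI+DEIX against TBI and for Xrcc6, the gene with the largest difference of the list, to set shared letters beside shared changes. They come from RefSeq on GRCm38.p6, run 5′ to 3′ on the gene's strand from 250 bases before to 30 after the annotated start, and capitals mark a match to an E2F motif. E2F factors control many genes of the G1 to S transition. The windows are chr9:36726629-36726908 on the minus strand for Chek1, chr5:110839733-110840012 on the plus strand for Chek2, chr1:71102943-71103222 on the minus strand for Bard1, chr4:116123661-116123940 on the minus strand for Rad54l (1 of 2 entries whose starts are 1 base apart) and chr15:82016119-82016398 on the plus strand for Xrcc6. That RefSeq start lies inside the span GENCODE gives Xrcc6, chr15:81987835-82040085. The Bard1 start also lies inside its GENCODE span, chr1:71027498-71103146. The whole Chek1 window lies inside the GENCODE span of Chek1, chr9:36708482-36727065, and so does not reach the GENCODE start.
Chek1: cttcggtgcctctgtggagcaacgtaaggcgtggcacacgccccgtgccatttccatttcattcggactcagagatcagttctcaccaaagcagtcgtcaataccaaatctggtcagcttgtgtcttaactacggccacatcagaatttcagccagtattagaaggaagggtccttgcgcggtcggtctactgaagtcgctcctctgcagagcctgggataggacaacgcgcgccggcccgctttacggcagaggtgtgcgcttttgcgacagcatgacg
Chek2: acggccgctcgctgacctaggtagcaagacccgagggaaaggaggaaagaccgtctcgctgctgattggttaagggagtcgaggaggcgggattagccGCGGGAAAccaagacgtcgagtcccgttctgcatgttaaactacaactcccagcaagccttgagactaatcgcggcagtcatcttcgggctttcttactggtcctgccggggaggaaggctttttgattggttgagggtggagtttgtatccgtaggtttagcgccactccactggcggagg
Bard1: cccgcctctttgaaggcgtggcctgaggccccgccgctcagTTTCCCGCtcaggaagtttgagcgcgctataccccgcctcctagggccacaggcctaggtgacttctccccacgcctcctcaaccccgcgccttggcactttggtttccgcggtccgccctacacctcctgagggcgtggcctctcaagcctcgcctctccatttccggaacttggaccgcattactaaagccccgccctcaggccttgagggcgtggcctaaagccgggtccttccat
Rad54l: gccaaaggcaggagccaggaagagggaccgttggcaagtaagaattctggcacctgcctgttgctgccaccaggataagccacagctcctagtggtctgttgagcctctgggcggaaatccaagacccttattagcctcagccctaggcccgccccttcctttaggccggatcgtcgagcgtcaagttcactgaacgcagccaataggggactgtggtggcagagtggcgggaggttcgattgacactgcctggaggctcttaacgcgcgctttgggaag
Xrcc6: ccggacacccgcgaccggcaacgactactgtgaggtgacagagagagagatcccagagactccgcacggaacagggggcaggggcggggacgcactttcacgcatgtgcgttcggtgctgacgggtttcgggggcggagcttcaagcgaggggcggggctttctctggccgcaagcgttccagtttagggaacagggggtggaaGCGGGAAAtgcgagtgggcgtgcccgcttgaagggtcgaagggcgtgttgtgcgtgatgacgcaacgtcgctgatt

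The motif was searched on both strands as TTTCCCGC, TTTGGCGC, TTTCGCGC and TTTGCCGC. Of the 35 genes, 27 had an entry in the promoter table, and 7 of these (25.9%) held a match: Bard1, Brca2, Chek2, Clspn, Mdc1, Topbp1 and Xrcc6. Among all 27025 genes of the table, which are not limited to the tested genes, 661 (2.45%) did. Brca2, Clspn, Mdc1, Topbp1 and Xrcc6 held a match but were not called in TBI+DEIX against TBI. In Bard1 the match lay at bases -209 to -202 from the start, in Chek2 at -152 to -145 and in Xrcc6 at -46 to -39. Neither the Chek1 nor the Rad54l window held these letters, and the Chek1 window does not reach the GENCODE start of the gene. The NF-Y letters CCAAT, searched the same way, were in 12 of 27 windows (44.4%) and in 39.7% of all genes' windows, and the cell-cycle homology region letters TTTGAA or TTCGAA in 4 of 27 (14.8%) and in 20.9%. A match is a description of the letters only.

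By group means the kinases and their activators were lower in TBI+DEIX than in TBI for all 6 genes, with a median log2 difference of -0.42. Atr and Topbp1 were at 99.3% and 99.5% of the TBI mean, and each changed sign in 2 alternatives. Of the 6 genes, 2 were called, both lower, where 3.41% of all tested genes were called lower. Chek1 encodes the checkpoint kinase that acts downstream of ATR. It was at 10.9, 10.4 and 8.2 FPKM in control, 10.3, 11 and 13.6 in TBI, 7.02, 8.3 and 6.75 in TBI+DEIX and 7.88, 8.7 and 7.92 in DEIX. All TBI+DEIX libraries lay below all TBI libraries, and below 2 of the 3 control libraries, and the DEIX libraries overlapped both TBI+DEIX and control. The Chek1 mean in TBI+DEIX was 63.2% of that in TBI (log2 difference -0.59, SE 0.13, limma adjusted p = 0.0276). The call was lost in 8 of 21 alternatives, among them without control replicate 2 and without TBI replicate 2 or 3 or TBI+DEIX replicate 3, and the adjusted p reached 0.148.

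Chek2 encodes the kinase that ATM activates. It was at 13.2, 13 and 12.5 FPKM in control, 17, 13 and 15.9 in TBI, 7.93, 11.1 and 9.96 in TBI+DEIX and 12.5, 12.8 and 12.5 in DEIX. The 3 TBI+DEIX libraries were the lowest of the 12, and control and DEIX lay within 1 FPKM of each other. Its mean in TBI+DEIX was 63.1% of that in TBI (log2 difference -0.62, SE 0.12, limma adjusted p = 0.0203) and 74.8% of that in control (log2 difference -0.40, SE 0.12, limma adjusted p = 0.0334). The call against TBI was lost in 5 of 21 alternatives, among them without TBI replicate 3 and without TBI+DEIX replicate 3, and that against control in 8 of 21, among them each of the 3 fits that left out 1 control library.

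Clspn and Topbp1, whose products help ATR activate CHK1, were not called. Clspn was at 20.7, 19.5 and 16.7 FPKM in control, 25.2, 23.6 and 27.9 in TBI, 25.9, 15.7 and 14.1 in TBI+DEIX and 16.4, 20.8 and 16.4 in DEIX. All TBI libraries lay above all control libraries (log2 difference 0.41, SE 0.19, limma adjusted p = 0.285), while TBI+DEIX replicate 1 lay among the TBI libraries and the other 2 below all control libraries. Topbp1 and Atr split in the same way within TBI+DEIX: Topbp1 was at 77.1, 36.7 and 34.6 FPKM and Atr at 8.98, 4.39 and 3.69 FPKM, with replicate 1 the highest of all 12 libraries and the other 2 below every control library. Their group means therefore describe no library of the group. Atm, the apical break kinase, was low in all 12 libraries, between 2.03 and 4.62 FPKM. All 3 TBI+DEIX values of Atm lay below all 3 TBI values (log2 difference -0.35, SE 0.16, limma adjusted p = 0.187).

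Among the chromatin marks, readers and ubiquitin ligases, 6 of 6 genes were lower in TBI+DEIX than in TBI, with a median of -0.27, and 0 were called by limma, with 2 at an unadjusted p under 0.05. Rnf8 changed sign in 1 alternative and Trp53bp1 in 2. H2afx was at 192, 210.3 and 274 FPKM in control, 184, 189 and 198 in TBI, 164, 168 and 152 in TBI+DEIX and 194, 162 and 153 in DEIX. Control had the highest mean, and all TBI+DEIX libraries lay below all control and all TBI libraries. H2afx fell in TBI+DEIX to 71.5% of control (log2 difference -0.47, SE 0.14, limma adjusted p = 0.0308), and the call was lost in 6 of 21 alternatives, among them without control replicate 2, without control replicate 3 and without TBI+DEIX replicate 3. Its difference between DEIX and control was similar in size but not called (log2 difference -0.40, SE 0.14, limma adjusted p = 0.115).

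Mdc1 encodes the reader that binds phosphorylated H2AX. It was at 20.4, 15.8 and 16.8 FPKM in TBI and 15.6, 11.9 and 11.3 in TBI+DEIX, groups that did not overlap (log2 difference -0.43, SE 0.14, limma adjusted p = 0.0885). Rnf8, a ubiquitin ligase recruited by MDC1, was higher in every TBI library, at 9.29, 7.94 and 8.67 FPKM, than in any control library, at 7.82, 6.67 and 6.95 FPKM, and was not called (log2 difference 0.24, SE 0.10, limma adjusted p = 0.25). Rnf168, which extends the ubiquitin mark, and Rif1, a 53BP1 partner that limits resection, were also lower in TBI+DEIX than in TBI, by -0.31 and -0.32 on the log2 scale, and neither was called. Under the alternatives the difference ran from -0.48 to -0.20 for Rnf168 and from -0.45 to -0.19 for Rif1. Trp53bp1, encoding 53BP1, moved least: its differences among the 4 group comparisons ran from -0.02 to 0.05, and its 12 values from 2.65 to 4.1 FPKM.

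In the MRN complex and the resection genes, all 6 were above control in TBI (median 0.30) and below TBI in TBI+DEIX (median -0.28), and limma called 0 in either comparison, with 1 and 2 at an unadjusted p under 0.05. For 4 of the 6 all TBI libraries lay above all control libraries, as for 22.0% of all tested genes. Nbn, the MRN subunit that ties the complex to ATM, was at 7.59, 7.1 and 5.8 FPKM in control, 9.1, 9.07 and 10.9 in TBI, 9.1, 7.78 and 8.02 in TBI+DEIX and 7.68, 8.74 and 8.05 in DEIX. Every library of the other 3 groups was above every control library, and the difference between TBI and control was just outside the threshold (log2 difference 0.45, SE 0.12, limma adjusted p = 0.0592). Mre11a, the MRN nuclease, was at 13.8, 14.7 and 14 FPKM in TBI and 13.2, 9.76 and 10.4 in TBI+DEIX, again without overlap (log2 difference -0.33, SE 0.12, limma adjusted p = 0.0965). Rad50, the structural subunit, differed by less than 0.25 on the log2 scale in each of the 4 group comparisons.

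Rbbp8, encoding the resection factor CtIP, was higher in TBI than in control in all 3 libraries (log2 difference 0.25, SE 0.14, limma adjusted p = 0.379). Blm, a helicase of resection and of crossover control, was at 13.2, 11.5 and 10.6 FPKM in control and 15.2, 14.6 and 16.8 in TBI (log2 difference 0.38, SE 0.20, limma adjusted p = 0.358). In TBI+DEIX it was at 15.2, 9.95 and 8.86 FPKM, with replicate 1 at the TBI level and the others below every control library. Exo1, a resection nuclease, was at 8.87, 9.05 and 5.2 FPKM in TBI+DEIX, where only replicate 3 lay below all TBI libraries, and was not called against TBI (log2 difference -0.36, SE 0.19, limma adjusted p = 0.239).

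The 6 classical end-joining genes did not move together, and they held the largest differences of the list. Xrcc6 encodes KU70, which with KU80 encircles broken DNA ends. It was at 37.9, 35.8 and 41 FPKM in control, 17.6, 28.2 and 36.6 in TBI, 16.7, 19.9 and 14.4 in TBI+DEIX and 16.6, 17.9 and 16.1 in DEIX. All DEIX and TBI+DEIX libraries lay below all control libraries, and TBI ran from the level of the DEIX libraries to that of control. Xrcc6 fell in DEIX to 44.2% of control (log2 difference -1.13, SE 0.21, limma adjusted p = 0.0126) and in TBI+DEIX to 44.5% (log2 difference -1.13, SE 0.21, limma adjusted p = 0.00288). The second call held in all 21 alternatives. The first was lost in 5 of 20, namely without control replicate 1, 2 or 3 and without DEIX replicate 1 or 3, with an adjusted p of at most 0.0625. It was not called between TBI and control (log2 difference -0.52, SE 0.21, limma adjusted p = 0.222).

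Lig4 encodes the ligase that seals the ends. It was at 7.06, 5.73 and 5.82 FPKM in control, 3.22, 4.81 and 5.05 in TBI, 3.13, 4.25 and 4.16 in TBI+DEIX and 2.78, 2.44 and 3.52 in DEIX. Every library of the 3 treated groups lay below every control library. Lig4 fell in DEIX to 47.0% of control (log2 difference -0.88, SE 0.17, limma adjusted p = 0.0135) and in TBI+DEIX to 62.0% (log2 difference -0.57, SE 0.17, limma adjusted p = 0.0241), and was not called in TBI (log2 difference -0.44, SE 0.17, limma adjusted p = 0.19). Both calls were lost on leaving out any 1 of the control libraries, and the call in DEIX also without DEIX replicate 1, with an adjusted p of at most 0.0655 in DEIX and 0.0887 in TBI+DEIX.

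Both partners of ligase IV in the list differed in the opposite direction in TBI+DEIX. Nhej1, encoding the bridging factor XLF, was at 5.32, 5.84 and 6.54 FPKM in control, 6.44, 5.53 and 5.37 in TBI, 8, 7.95 and 8.83 in TBI+DEIX and 7.24, 5.24 and 5.77 in DEIX. The 3 TBI+DEIX libraries were the highest of the 12. Nhej1 rose in TBI+DEIX to 143% of TBI (log2 difference 0.45, SE 0.12, limma adjusted p = 0.0479) and 140.0% of control (log2 difference 0.43, SE 0.12, limma adjusted p = 0.024), and the first call was lost in 12 of 21 alternatives, in which the adjusted p reached 0.409. The second was lost in 4 of 21, namely on the TPM scale and without control replicate 1, control replicate 2 or TBI+DEIX replicate 3, with an adjusted p of up to 0.295. Xrcc4, whose product stabilises ligase IV, was at 6.63, 6.09 and 6.3 FPKM in control, 6.9, 7.01 and 5.97 in TBI, 8.64, 7.92 and 8.66 in TBI+DEIX and 9.03, 6.38 and 7.21 in DEIX. It rose in TBI+DEIX against control (log2 difference 0.36, SE 0.12, limma adjusted p = 0.0414), a call lost in 13 of 21 alternatives, and was not called against TBI although the groups did not overlap (log2 difference 0.30, SE 0.12, limma adjusted p = 0.127).

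Xrcc5, encoding KU80, the partner of KU70, did not follow Xrcc6. It was at 4.41, 4.73 and 3.62 FPKM in control, 4, 6.83 and 8.41 in TBI, 7.56, 4.99 and 4.01 in TBI+DEIX and 3.03, 3.73 and 3.09 in DEIX, and was called in no comparison. Within TBI, Xrcc5 and Xrcc6 were both lowest in replicate 1 and highest in replicate 3. Prkdc, encoding the catalytic subunit of DNA-PK, was at 4.08, 3.59 and 3.62 FPKM in TBI and 2.75, 2.62 and 2.25 in TBI+DEIX, without overlap and just outside the threshold (log2 difference -0.43, SE 0.12, limma adjusted p = 0.0564).

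**Figure D3:**
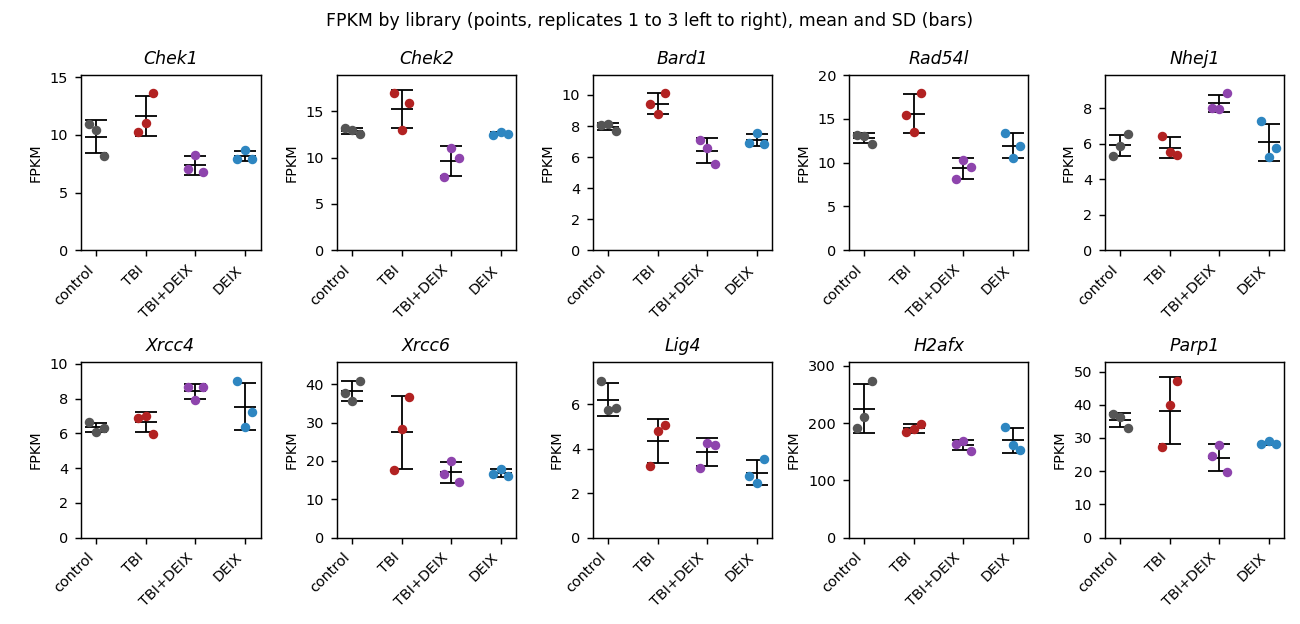
FPKM of the 10 genes called in at least 1 comparison, 1 panel per gene, each point a library, with the group mean and SD as bars; the axes start at 0 and differ in range. The 3 TBI+DEIX points of Chek2 and Rad54l lie below all points of the other groups, those of Nhej1 above all others, and the 3 control points of Xrcc6 and Lig4 above all DEIX and TBI+DEIX points.

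By group means, all 6 genes of homologous recombination were above control in TBI (median 0.24) and below TBI in TBI+DEIX (median -0.45). For Rad52, TBI+DEIX replicates 2 and 3 lay above all TBI libraries, and the sign of that difference changed in 3 alternatives. Of the 6 genes, 2 fell in the second comparison, where 3.41% of all tested genes did. Rad54l, encoding a motor protein of strand exchange, was at 13.2, 13.1 and 12.2 FPKM in control, 15.4, 13.5 and 17.9 in TBI, 8.09, 10.4 and 9.55 in TBI+DEIX and 13.4, 10.6 and 11.9 in DEIX. The 3 TBI+DEIX libraries were the lowest of the 12 and the 3 TBI libraries the highest. Its mean in TBI+DEIX was 59.8% of that in TBI (log2 difference -0.68, SE 0.13, limma adjusted p = 0.0188), a call that held in 18 of 21 alternatives, and 72.8% of that in control (log2 difference -0.42, SE 0.13, limma adjusted p = 0.0277). The call against control was lost on leaving out any 1 control library, TBI+DEIX replicate 1 or TBI+DEIX replicate 3.

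Bard1 encodes the partner of BRCA1 in its ubiquitin ligase. It was at 8.06, 8.1 and 7.71 FPKM in control, 9.42, 8.79 and 10.1 in TBI, 7.11, 6.6 and 5.56 in TBI+DEIX and 6.88, 7.57 and 6.86 in DEIX. TBI was above and both DEIX-treated groups were below control without overlap, and the mean in TBI+DEIX was 68.0% of that in TBI (log2 difference -0.50, SE 0.10, limma adjusted p = 0.0207), a call lost in 4 of 21 alternatives, among them without TBI replicate 3 and without TBI+DEIX replicate 3. Brca1 itself was at 11.9, 9.46 and 12.1 FPKM in TBI and 9.77, 6.71 and 5.57 in TBI+DEIX, where replicate 1 overlapped the TBI range, and was not called (log2 difference -0.56, SE 0.17, limma adjusted p = 0.0606). Palb2, which joins BRCA1 to BRCA2, was lower in every TBI+DEIX library than in any TBI library (log2 difference -0.32, SE 0.14, limma adjusted p = 0.181).

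Brca2, a mediator of recombination, and Rad52, an annealing factor, split within TBI+DEIX. Brca2 was at 7.88, 3.27 and 2.68 FPKM, the first the highest of all 12 libraries and the third the lowest. Rad52 was at 3.71, 7.9 and 8.1 FPKM, the first the lowest of all 12 and the third the highest. Neither gene was called in any comparison, and no direction can be read from these group means.

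The 3 Fanconi genes, which act on DNA crosslinks and blocked forks, were above control in TBI (median 0.23) and below TBI in TBI+DEIX (median -0.44), with 0 limma calls in either and 1 and 2 at an unadjusted p under 0.05. Fancd2 was at 8.4, 8.03 and 7.31 FPKM in control, 10.6, 9.27 and 10.9 in TBI, 9.16, 6.79 and 6 in TBI+DEIX and 7.29, 7.15 and 6.98 in DEIX. TBI stood above each other group without overlap (log2 difference 0.34, SE 0.13, limma adjusted p = 0.207). Fanci, the partner of FANCD2, was lower in TBI+DEIX than in TBI (log2 difference -0.44, SE 0.13, limma adjusted p = 0.0636), as was Fanca, a subunit of the ligase that modifies them (log2 difference -0.24, SE 0.14, limma adjusted p = 0.292); neither was called.

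Parp1 encodes the enzyme that marks broken DNA with poly(ADP-ribose). It was at 37.1, 36.2 and 33 FPKM in control, 27.3, 40 and 47.3 in TBI, 24.6, 27.8 and 19.9 in TBI+DEIX and 28.1, 29 and 28.2 in DEIX. Both DEIX-treated groups lay below control without overlap, and TBI ran from below all DEIX libraries to above all control libraries. Parp1 fell in TBI+DEIX to 67.9% of control (log2 difference -0.55, SE 0.18, limma adjusted p = 0.0358), a call lost in 8 of 21 alternatives, and was just outside the threshold against TBI (log2 difference -0.62, SE 0.18, limma adjusted p = 0.0521). Polq, encoding the polymerase of theta-mediated end joining, was at 5.2, 5.23 and 4.13 FPKM in control, 7.12, 6.18 and 7.85 in TBI, 5.84, 5.3 and 4.3 in TBI+DEIX and 4.73, 4.65 and 4.67 in DEIX. TBI was above all other libraries, with the largest difference of the list between TBI and control apart from Xrcc6, and was not called (log2 difference 0.46, SE 0.13, limma adjusted p = 0.0739).

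In DEIX against control, where neither group was irradiated, Xrcc6 and Lig4 were the only genes of the list called, both lower. These 2 of 35 compare with 7.24% of all tested genes called and 2.72% called lower. The median difference was -0.06, against 0.02 for all tested genes, and 25 of the 35 genes were lower, as were 47.7% of all tested genes. That median was -0.029 without control replicate 1, with 21 genes lower, -0.13 without control replicate 3, with 29 lower, and -0.13 without DEIX replicate 2, with 27 lower. No gene was called by limma without control replicate 1, 2 or 3 or DEIX replicate 1, where 1.69%, 1.33%, 1.58% and 1.5% of all tested genes were (4, 3, 4 and 3 of the 35 had an unadjusted p under 0.05), and 1, Lig4, without DEIX replicate 3 (1.98%). DEIX lay below control without overlap for 6 genes (17.2% of all tested genes) and above for 1, Nbn (23.4%).

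In TBI+DEIX against control 8 of 35 genes were called, where 30.0% of all tested genes were, 16.9% higher and 13.1% lower: Nhej1 and Xrcc4 rose, and Chek2, H2afx, Lig4, Parp1, Rad54l and Xrcc6 fell. Its median was -0.12, against 0.02, and it moved with single libraries: it was -0.018 without TBI+DEIX replicate 3, with 20 genes lower, -0.22 without control replicate 3 and -0.30 without TBI+DEIX replicate 1. Fewer genes were called without control replicate 1 (2, with 20.9% of all tested genes), control replicate 2 (1, with 18.2%), control replicate 3 (4, with 20.1%) or TBI+DEIX replicate 3 (2, with 24.3%). Without TBI+DEIX replicate 1, 16 genes were called, 14 of them lower, where 38.5% of all tested genes were.

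The DEIX difference in irradiated mice was also set against that in unirradiated mice. limma called 0 of 35 genes in this interaction, where 0.2% of all tested genes were called, with 9 at an unadjusted p under 0.05 against 7.5% of all tested genes. The interaction was below 0 for 28 genes, as for 53.5% of all tested genes, and its median was -0.22 against -0.02, and on leaving out TBI+DEIX replicate 3 or 1 it was -0.14 or -0.34. The largest values were those of Lig4 (log2 difference 0.75, SE 0.24, limma adjusted p = 0.368), Chek2 (log2 difference -0.58, SE 0.18, limma adjusted p = 0.333) and Rad54l (log2 difference -0.58, SE 0.18, limma adjusted p = 0.351). A different DEIX effect with and without irradiation was therefore not shown for any gene of the list. Without TBI+DEIX replicate 1, Brca1 was called, where 3.01% of all tested genes were.

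The list was also read beside 73 other genes of the same pathways. In TBI against control 1 of 73 was called (1.37%, against 3.99% of all tested genes): Polm, an end-joining polymerase, fell to 6.25 ± 0.447 FPKM in TBI, where control was at 12.9 ± 0.655 (SD, n = 3 in each group; log2 difference -0.93, SE 0.14, limma adjusted p = 0.00414). It fell in DEIX as well, to 7.4 ± 0.953 FPKM (log2 difference -0.73, SE 0.14, limma adjusted p = 0.0147). In TBI+DEIX it fell to 8.05 ± 1.79 FPKM, against the same control (log2 difference -0.63, SE 0.14, limma adjusted p = 0.00686). In TBI+DEIX against TBI 3 rose and 13 fell, 21.9% of the 73 against 8.1% of all tested genes, with a median over the 73 of -0.19. All of these calls were lost in the fit on the compared groups alone, which called 0 genes. Without TBI replicate 3, limma called only 5 of all tested genes, each of them higher, so the 13 lower calls were lost. The strand exchange group held 5 of the 13: Rpa1, Rpa2 and Rpa3, the subunits of the single-strand DNA binding protein RPA, Fignl1 and Xrcc2. TBI+DEIX held Rpa3 at 27.5 ± 7.86 FPKM, against 45.3 ± 2.69 in TBI (log2 difference -0.74, SE 0.18, limma adjusted p = 0.0355), and Fignl1 at 23.2 ± 3.7 FPKM, against 38.1 ± 4.81 (log2 difference -0.69, SE 0.12, limma adjusted p = 0.017). Fancc, Fancl and Ube2t of the Fanconi pathway, Eme1 and Rmi2 of the nuclease and resolution group, Wee1, Etaa1 and Aplf made up the other 8.

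The 3 that rose were Mdm2, the ubiquitin ligase of p53 and a p53 target, at 43.5 ± 0.411 FPKM in TBI+DEIX against 32.4 ± 1.65 in TBI (log2 difference 0.42, SE 0.08, limma adjusted p = 0.0196), Kat5, an acetyltransferase that activates ATM (log2 difference 0.37, SE 0.10, limma adjusted p = 0.0488), and Rnf169, a reader of the RNF168 mark (log2 difference 0.64, SE 0.13, limma adjusted p = 0.0206). Rnf169 also rose in DEIX against control (log2 difference 0.64, SE 0.13, limma adjusted p = 0.0196). In TBI+DEIX against control 7 of the 73 rose and 13 fell, 27.4% against 30.0% of all tested genes, and in DEIX against control 2 were called, 2.74% against 7.24%.

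The 14 genes of the list whose expression is linked to S and G2 phase in textbooks had a median of 0.29 in TBI against control, where 13 were higher, and of -0.45 in TBI+DEIX against TBI, where all 14 were lower and 3 were called (21.4%, against 8.1% of all tested genes called and 3.41% called lower). Of these 14, Topbp1 changed sign in 2 alternatives of the second comparison. The other 21 had medians of 0.12 and -0.23. Markers of proliferation differed in the same directions. Of 23 such markers all 23 were above control in TBI (median 0.31, 0 called by limma, 10 at an unadjusted p under 0.05) and all 23 below TBI in TBI+DEIX (median -0.50), where 9 fell (39.1%, against the same 3.41%): Ccne2, Cdc6, Mcm2, Mcm4, Mcm5, Mcm7, Pcna, Rrm2 and Tk1. Their summed level was 1975 to 2030.0 FPKM in control, 2182 to 2688 in TBI, 1611 to 1900.0 in TBI+DEIX and 1660.0 to 1983 in DEIX, and none was at 0 in any library. TBI and TBI+DEIX did not overlap. The 9 marker calls and the 3 calls of S and G2 linked genes were lost without TBI replicate 3 and in the fit on the compared groups alone. Those fits called 0.0455% and 0.0% of all tested genes. The part of proliferation in the differences of the list was not tested.

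Lineage markers differed as well. The 10 B-lineage markers, whose cells use the end-joining genes in V(D)J recombination, summed to 392 to 471 FPKM in control, 29.1 to 367 in TBI, 6.72 to 182 in TBI+DEIX and 58.9 to 93.5 in DEIX, with none at 0 in any library. In DEIX against control all 10 were lower, with a median of -2.37, and Rag1, the recombinase that cuts DNA in V(D)J recombination, was the 1 of 10 called, where 7.24% of all tested genes were (log2 difference -3.29, SE 0.84, limma adjusted p = 0.0411). In TBI+DEIX against control, where Xrcc6 and Lig4 were also called lower, all 10 were lower, with a median of -2.95, and 8 were called (80.0%, against 30.0% of all tested genes). The 11 erythroid markers with a value summed to 3743 to 5881 FPKM in control, 2067 to 9266 in TBI, 256 to 1853 in TBI+DEIX and 1526 to 9102 in DEIX. All 11 were lower in TBI+DEIX than in TBI, with a median of -2.58, and 4 were called (36.4%, against 8.1% of all tested genes). These 4 calls were lost without TBI replicate 3 and in the fit on the compared groups alone, where 0.0455% and 0.0% of all tested genes were called. Against control the erythroid markers were also lower for all 11, with a median of -2.19, and 7 were called (63.6%, against 30.0%). Maturing neutrophil markers were higher in TBI+DEIX than in control for 8 of 8, with a median of 1.04 and 4 called, where 30.0% of all tested genes were, and above TBI for 7 of 8, with a median of 0.54 and 0 limma calls (3 at an unadjusted p under 0.05). In DEIX they were above control for 7 of 8, with a median of 0.61 and 1 called (12.5%, against 7.24%). Against control, stem and progenitor markers were lower for 6 of 6 in TBI (median -0.87, 3 called, where 3.99% of all tested genes were) and in TBI+DEIX (median -1.07, 5 called, 83.3% against 30.0%). T and NK markers were lower for 6 of 6 in both, with 2 called in each, or 33.3%, which in TBI+DEIX is near the 30.0% of all tested genes. In DEIX against control T and NK markers were also lower for 6 of 6, with a median of -0.34 and Gzma called (16.7%, against 7.24%). Monocyte and macrophage markers were higher in DEIX than in control for 6 of 6, with a median of 0.52 and F13a1 called (16.7%, against 7.24%), and below 0 in the interaction for 6 of 6, with a median of -0.72 and 0 limma calls (2 at an unadjusted p under 0.05). Their summed level was 1909.0 to 1941.0 FPKM in control, 1294.0 to 2050.0 in TBI, 758.3 to 2648.0 in TBI+DEIX and 2097.0 to 2534.0 in DEIX. The summed level of the neutrophil markers was 21750.0 to 30370.0 FPKM in control and 21660.0 to 52590.0 in TBI+DEIX, and that of the stem and progenitor markers 52.0 to 55.5 in control, 22.8 to 28.2 in TBI and 14.6 to 28.6 in TBI+DEIX. The parts of these cell types in the differences of the list were not tested.

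**Figure D4:**
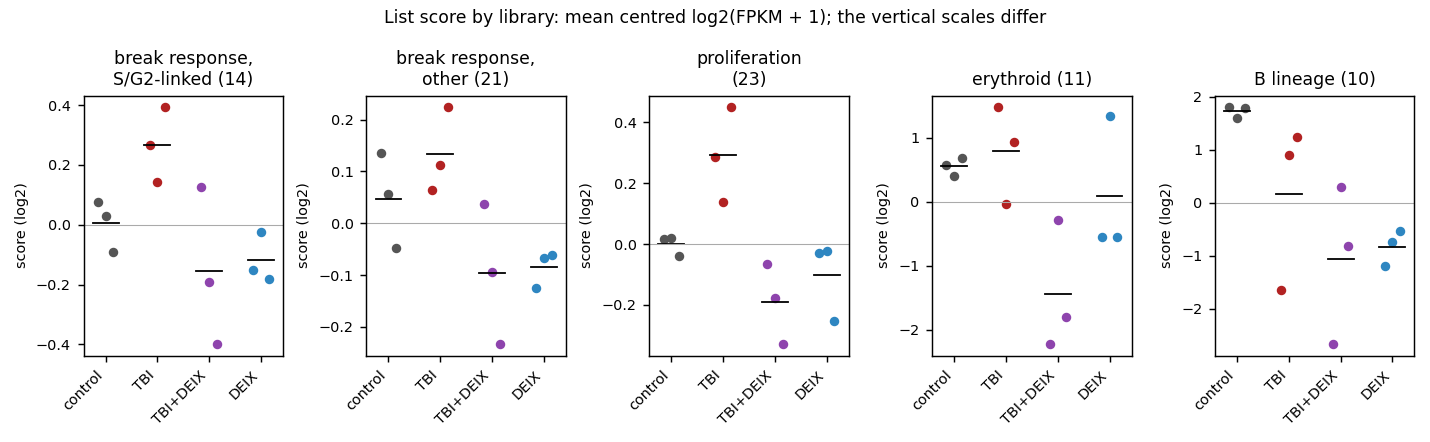
Mean log2(FPKM + 1) of each list per library, minus its mean over the 12 libraries, for the 14 S and G2 linked genes of the list, its other 21 genes, and the proliferation, erythroid and B-lineage markers (panels with different vertical scales; points are libraries, horizontal lines group means). The 3 TBI points of the proliferation markers lie above all others, and so do the 3 control points of the B-lineage markers.

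For some of the genes, exons overlap those of a neighbour, and whether the authors counted by strand is not given in the sources used here, although the library kit keeps strand. The largest shares are given here. On the opposite strand, 16.0% of the exon bases of Fanci lie within Polg, 15.4% of those of Rad54l within Lrrc41, 15% of those of Trp53bp1 within Tubgcp4, 10.5% of those of Fanca within Zfp276, 10.2% of those of H2afx within Gm44335 and 7.69% of those of Xrcc6 within Desi1. If strand was not used, reads of these neighbours cannot be told apart from those of the gene. Rnf8 shares 13.2% of its exon bases with Gm28043 on the same strand, where reads cannot be told apart by strand in any case.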

How the data were processed

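Messenger RNA of 12 whole bone marrow libraries, 3 per group, was sequenced after preparation with a directional MGI kit, per the labels' protocols. The authors deposited 1 table of FPKM per gene and library; STAR 2.6, Cufflinks 2.2.1 and the mm10 genome are named in the submitters' processing notes, while the annotation and the counting mode are not given in the sources used here. All 21853 identifiers, with their versions, matched protein-coding genes of GENCODE vM21, which gave symbols and coordinates. FPKM values are not counts, and total depth is unknown.

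The 35 genes and the other gene lists were chosen with earlier results of these data known. Genes with FPKM of at least 1 in at least 3 libraries (10994) were tested as log2(FPKM + 1) with limma 3.58.1 in R 4.3.3, with 1 mean per group over all 12 libraries, 8 residual degrees of freedom and an intensity trend in the prior variance. P-values were adjusted by the Benjamini-Hochberg method over all tested genes, with a threshold of 0.05. Each of the 3 treated groups was compared with control, TBI+DEIX also with TBI, and the DEIX difference with irradiation was compared with that without (the interaction). Medians over a list describe it and carry no test. The script was tested on simulated data for TBI against control only. The simulated spread was the same in all groups and came from control, TBI and DEIX, so the wider spread of TBI+DEIX was not covered. Any of the 35 genes could be named; those called, and the 2 with the largest difference in each contrast, were to be given with full statistics, and of the other lists the called genes and the 3 highest in FPKM could be named. One item is not reported here.

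Alternatives were a fit on the compared groups alone, a pseudocount of 0.1, no filter, a mean FPKM of at least 5, rescaling to TPM, median-of-ratios scaling, array weights (estimated gene by gene, since the default estimator did not converge), the replicate number as a block, and leaving out each library in turn. A fit on the compared groups without TBI+DEIX replicate 1 was added after the data were seen. Over 18 pairs of libraries of different groups with the same replicate number, the deviations from the group means correlated between -0.447 and 0.242, so the numbers were not taken to pair the samples.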

Additional observations from a re-analysis of the deposited data

How the results depend on the processing

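The direction of the list's median held in all 5 comparisons under every alternative that was run. Single genes changed sign under at least 1 alternative: 6 of 35 in TBI against control, 6 in TBI+DEIX against TBI (Atr, Rad52, Rnf8, Topbp1, Trp53bp1 and Xrcc5), 15 in DEIX against control, 11 in TBI+DEIX against control and 8 in the interaction. In the fit the report gives, none of them was called in that comparison; under alternatives some were, such as Atr and Topbp1 in TBI+DEIX against TBI without TBI+DEIX replicate 1. Calls were less stable than the medians. In a fit on the compared groups alone, 4 of the 35 genes were called in TBI against control, 0 in TBI+DEIX against TBI, 3 in DEIX against control and 4 in TBI+DEIX against control, where that fit called 12.9%, 0.0%, 18.7% and 19.8% of everything tested. With a mean FPKM of at least 5, which leaves 28 of the 35 genes, 1 was called in DEIX against control, with 6.91% of all tested genes. On the TPM scale 1 was called in TBI+DEIX against TBI and 2 in TBI+DEIX against control, with 1.43% and 16.2% of all tested genes against 8.1% and 30.0% on FPKM, and the medians were -0.47 in TBI+DEIX against TBI, -0.20 in DEIX against control and -0.24 in TBI+DEIX against control. That scale lowered the median of all tested genes to -0.12 in both TBI+DEIX against TBI and DEIX against control, so that the list's median relative to it was -0.35 and -0.08, against -0.34 and -0.08 on FPKM. It also cut the share of calls that were higher, over all tested genes, from 22.3% to 9.49% in TBI against control, from 57.9% to 34.4% in TBI+DEIX against TBI, from 62.4% to 19.1% in DEIX against control, from 56.2% to 30.6% in TBI+DEIX against control and from 95.5% to 82.1% in the interaction. S100a8, S100a9 and Ngp, listed at 0 in some libraries, enter the TPM totals. Array weights, which gave control replicate 2 a weight of 11 and TBI+DEIX replicate 1 a weight of 0.0709, called 12 genes in TBI against control (median 0.12), 25 in TBI+DEIX against TBI, 8 in DEIX against control and 25 in TBI+DEIX against control (median -0.30), where it called 38.4%, 40.8%, 41.0% and 56.3% of all tested genes. The added fit on the compared groups without TBI+DEIX replicate 1 called 16 in TBI+DEIX against TBI (median -0.47) and 20 in TBI+DEIX against control (median -0.30), where it called 16.7% and 44.8% of all tested genes.

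With the replicate number as a block, which the labels do not tie to a shared litter or day, 3 genes were called in TBI+DEIX against TBI and 5 in TBI+DEIX against control, with 4.31% and 27.3% of all tested genes; the deviations of same-numbered libraries gave no sign of pairing. On leaving out each library in turn, the genes called ran from 0 to 5 in TBI against control, from 0 to 24 in TBI+DEIX against TBI, from 0 to 2 in DEIX against control, from 1 to 16 in TBI+DEIX against control and from 0 to 1 in the interaction. The share of all tested genes called moved too: it lay between 1.39% and 12.2%, 0.0455% and 25.8%, 1.33% and 21.8%, 18.2% and 38.5%, and 0.0364% and 3.01%, in the same order. The medians then lay between 0.15 and 0.25, between -0.47 and -0.20, between -0.13 and -0.03, between -0.30 and -0.018, and between -0.34 and -0.14. The highest counts in TBI against control, TBI+DEIX against TBI and TBI+DEIX against control came without TBI+DEIX replicate 1. Apart from fewer samples or genes, the causes were not tested. Total depth is unknown, and its bearing on the precision of low genes was not tested.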
